A study of Mus musculus with 8 samples.

Results

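The 10 transcription regulators of mesoderm and of the heart considered here, measured on expression arrays of mouse ES cells, were Hand1, Hand2, Mesp1, Mesp2, Tcf15, Tcf21, Meox1, Meox2, Mef2c and Myocd. They were picked by name, as every probe that is not a control and carries 1 of these 10 gene names among the 36406 names on the array, and each was represented by 1 probe in 1 spot. RNA came from E14 cells (E14Tg2A.4), a mouse ES cell line, either untreated or given 1 µM all-trans retinoic acid (RA) for 72 h, with 4 biological replicates of each condition and 1 array for each replicate. The methods add RA in medium without LIF, the cytokine that keeps ES cells self-renewing, so RA and the loss of LIF cannot be told apart here, and both conditions are bulk cultures of 1 line in which fewer cells of a type and less RNA per cell cannot be told apart. On each array the copied RNA carried 1 dye (Cy3), and every value below is a log2 signal relative to the array's 75th percentile.

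Mesoderm is the germ layer that gives rise to muscle, skeleton, blood, kidney and heart. Cells leaving the primitive streak turn on the bHLH proteins Mesp1 and Mesp2 for a short time, after which different mesoderm territories take up their own regulators: Hand1 and Hand2 in the heart and lateral plate, Tcf15 and the Meox homeodomain proteins in the somites, Tcf21 in the epicardium and other mesenchyme. Mef2c and myocardin (Myocd) act later, on the contractile genes of heart and smooth muscle. In ES cells many such genes lie under Polycomb repression, which is the setting in which the study compared untreated with RA-treated cells.

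Hand2, Mesp1, Mesp2, Tcf21, Meox2 and Mef2c, 6 of the 10 genes, had promoter windows in the RefSeq table (build GRCm38.p6). The 250 bases before the annotated start are given 5′ to 3′ on the gene's own strand, for Hand2 and Tcf21, which were dim in every untreated array and bright after RA, and for Mesp1 and Mesp2, chromosome 7 neighbours that both fell. The capitals mark E-boxes (CANNTG, read on both strands), the core sequence that bHLH proteins bind. The Hand2 window is at chr8:57320733-57320982 on the plus strand, that of Tcf21 at chr10:22820144-22820393 on the minus strand, that of Mesp1 at chr7:79793591-79793840 on the minus strand and that of Mesp2 at chr7:79810477-79810726 on the plus strand.
Hand2: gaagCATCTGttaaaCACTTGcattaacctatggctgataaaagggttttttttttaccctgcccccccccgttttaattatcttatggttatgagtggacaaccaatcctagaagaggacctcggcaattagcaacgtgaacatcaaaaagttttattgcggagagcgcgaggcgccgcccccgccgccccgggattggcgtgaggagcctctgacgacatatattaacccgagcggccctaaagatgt
Tcf21: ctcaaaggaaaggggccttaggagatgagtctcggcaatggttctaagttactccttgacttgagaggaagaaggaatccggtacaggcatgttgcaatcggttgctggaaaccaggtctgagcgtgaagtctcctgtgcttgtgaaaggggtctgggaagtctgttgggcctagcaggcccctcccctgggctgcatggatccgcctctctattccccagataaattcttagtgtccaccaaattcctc
Mesp1: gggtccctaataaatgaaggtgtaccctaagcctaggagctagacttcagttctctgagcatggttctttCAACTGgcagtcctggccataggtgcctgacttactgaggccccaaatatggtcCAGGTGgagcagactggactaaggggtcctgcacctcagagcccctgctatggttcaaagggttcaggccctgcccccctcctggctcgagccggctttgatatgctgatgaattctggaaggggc
Mesp2: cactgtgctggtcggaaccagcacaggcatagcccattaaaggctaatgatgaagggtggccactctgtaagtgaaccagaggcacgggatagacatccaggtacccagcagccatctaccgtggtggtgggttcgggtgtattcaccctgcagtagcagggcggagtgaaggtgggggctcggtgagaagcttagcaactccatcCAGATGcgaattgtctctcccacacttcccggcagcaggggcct

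Hand2 and Mesp1 had 2 E-boxes each in these bases and Mesp2 had 1, while the Tcf21 window had none. An E-box was found in 66.2% of all 32851 promoter windows of this length. The retinoic acid receptor core motif AGGTCA occurred in none of the 4 windows shown and in 4607 of all 32851 windows, and neither of the other motifs searched, CAGCTG (which is 1 form of the E-box; 13.0% of all windows) and TATAAA (12.4%), occurred in the 4 windows. The Meox2 window held 1 E-box and 1 TATAAA, and AGGTCA occurred among the regulators only in windows of Mef2c, in 2 of its 3. The Hand2 window was rich in CpG, with an observed over expected ratio of 0.993 that was above 94.0% of all windows. The ratio was 0.105 for Mesp1, above 15.6% of windows, and 0.389 for Mesp2 and 0.293 for Tcf21, against a median of 0.374 over all windows. The annotated starts of Mesp1 and Mesp2 lie 17137 bases apart and the genes point away from each other.

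Of the 10 regulators, 5 were higher after RA (Hand1, Hand2, Tcf21, Meox1 and Myocd), 4 were lower (Mesp1, Mesp2, Tcf15 and Meox2) and Mef2c was not called. A call required a limma adjusted p under 0.05 over all 55681 probes together with more than 1.5-fold change. Over all probes the same rule called 12.9% higher and 21.6% lower. The 4 RA arrays lay above all 4 untreated arrays for the 5 higher genes and below all of them for the 4 lower genes, an arrangement that held in 13.9% of all probes for above and 23.8% for below. Over the 9 regulators other than Mef2c, with genes that were dim throughout 1 condition at their lower bound, the median log2 fold change was 2.42 against -0.28 for the fitted values of all probes. The median absolute log2 fold change was 3.47 against 0.51. With quantile normalization in place of the 75th percentile the median of all probes was at -0.0026 and the same counts of 5 and 4 were obtained. The count of lower genes was 2 in the authors' processed values and 2 after normexp background correction with quantile normalization, and 3 under a filter on dim probes, while that of higher genes stayed at 5.

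**Figure D1:**
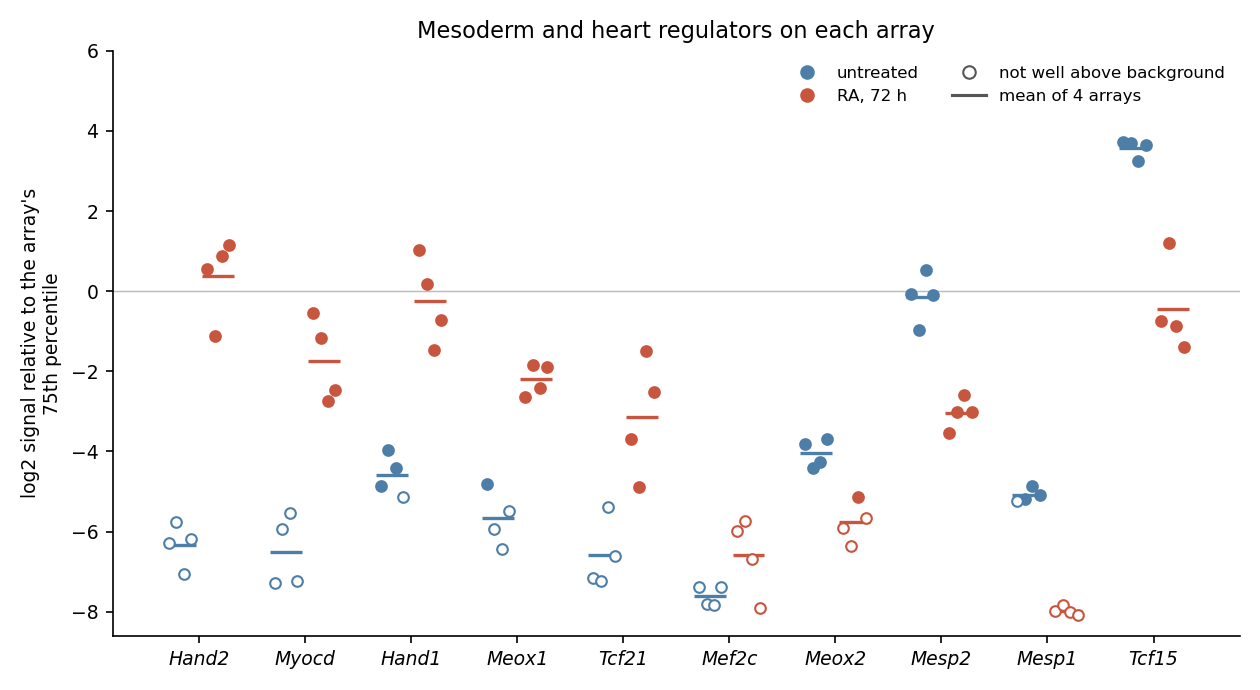
Log2 signal of each regulator on each of the 8 arrays, relative to the array's 75th percentile (vertical axis), with untreated arrays in blue and RA arrays in red; filled points were well above background by the scanner software, open points were not, and bars are means of 4 arrays. The 2 colours overlap only for Mef2c, which is open on all 8 arrays; heights can be compared within a gene and not between genes.

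The groups were separate for 9 of the 10 genes, but detection was uneven, as the plot of values by array shows. Mesp2 and Tcf15 were well above background on all 8 arrays. Hand2, Tcf21, Myocd and Mef2c were not well above background on any untreated array, and Mesp1 and Mef2c on none of the RA arrays. Where no signal is left above background the scanner software writes a substitute value. Substitutes stood for Mef2c on 4 untreated arrays and 1 RA array, and for Mesp1 on 4 RA arrays. They also stood for Myocd on 2 untreated arrays and for Tcf21 on 1. For a gene dim in every array of 1 condition the difference is only a lower bound. It was computed as the mean of the bright condition over the mean of the dim one, after each dim array was raised to the lowest signal that was well above background on that array (or kept at its own value where that was higher). Such bounds hold for the 75th percentile scale of the scanner's processed signal, and other background corrections can give smaller changes.

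Hand1 and Hand2, bHLH proteins needed for the chambers of the heart and for limb and extraembryonic mesoderm, both rose. Hand1 (NM_008213; probe on chromosome 11, 57642342 to 57642401, mm9) was at -4.87, -3.97, -4.41 and -5.14 in untreated replicates 1 to 4 and at 1.02, 0.18, -1.47 and -0.71 in RA replicates 1 to 4. It was faint before RA, well above background on 3 of 4 untreated arrays, and every RA array was higher, although the RA arrays themselves spread 5.62-fold. The log2 fold change was 4.35 ± 0.51 (SE, n = 4 and 4), or 20.4-fold, with a limma adjusted p of 0.000204. The change was smaller after normexp (2.98) and in the authors' processed values (3.11).

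Hand2 (NM_010402; chromosome 8, 59803220 to 59803279, mm9) was at -6.28, -5.77, -7.07 and -6.19 in the untreated arrays, none of them well above background, and at 0.55, -1.12, 0.88 and 1.15 after RA, all of them well above background. RA replicate 2 was the lowest and the other RA arrays lay close together. On the 75th percentile scale Hand2 was at least 57.4-fold higher after RA (fitted log2 fold change 6.69, limma adjusted p 1.83e-05), and the log2 fold change was 4.01 after normexp and 4.11 in the authors' processed values. Its promoter window was the CpG-rich one of the 4 shown.

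Tcf21 and Myocd also went from dim to bright. Tcf21, a bHLH protein of the epicardium, kidney and lung mesenchyme (NM_011545; chromosome 10, 22537563 to 22537622, mm9), read -7.15, -7.25, -5.39 and -6.61 in untreated cells and -3.68, -4.90, -1.50 and -2.51 after RA. The lowest RA array, replicate 2, was only slightly above the highest untreated array, replicate 3, and the RA arrays covered 10.5-fold, the widest range among the 10 regulators. Tcf21 was at least 5.36-fold higher on that scale (fitted log2 fold change 3.45, SE 0.71, limma adjusted p 0.00479), with 1.09 after normexp and 1.29 in the authors' processed values.

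Myocd, the coactivator that works with serum response factor on muscle genes (NM_145136; chromosome 11, 64991930 to 64991989, mm9), read -7.29, -5.94, -5.55 and -7.24 untreated and -0.55, -1.18, -2.74 and -2.46 with RA. RA replicate 1 was the highest and replicate 3 the lowest, the same 2 arrays as for Hand1. Myocd was at least 13.4-fold higher after RA on the same scale (fitted log2 fold change 4.77, limma adjusted p 0.000255), with 2.07 after normexp and 2.22 in the authors' processed values. Mef2c, a MADS-box factor of the heart field and muscle (NM_025282), was not well above background on any array, with -7.39, -7.80, -7.84 and -7.38 untreated and -5.98, -5.74, -6.68 and -7.91 after RA. RA replicate 4 was below all untreated arrays and the other 3 RA arrays above them. That ranking rests on substitute values for RA replicate 4 and all 4 untreated arrays, which are not measured levels. Mef2c was not called (limma adjusted p 0.0957) and, being dim on all 8 arrays, has no fold change here; without RA replicate 4 the call rule was met (adjusted p 0.00380). Its probe spans 2238 bases on chromosome 13 (83772788 to 83775025, mm9) and so bridges at least 1 intron.

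The earliest regulators went the other way. Mesp1, which marks the first cardiac progenitors (NM_008588; chromosome 7, 86937140 to 86937199, mm9), was at -5.24, -5.18, -4.86 and -5.10 in untreated cells, where 3 of 4 arrays were well above background. After RA it was at -7.99, -7.85, -8.01 and -8.08, all of them substitute values that the scanner software writes where no signal is left above background. The tight RA values are therefore not a measured level, and Mesp1 was at least 1.85-fold lower after RA (fitted log2 fold change -2.89, limma adjusted p 3.35e-06) on the 75th percentile scale. This size depends on how dim signal is treated: the change was -0.52 in the authors' processed values and -0.54 after normexp with quantile normalization, smaller than that bound and short of the call, and a filter on dim probes removed the gene.

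Mesp2, which sets the boundaries of the forming somites (NM_008589; chromosome 7, 86957849 to 86957908, mm9), was measured on every array, at -0.08, -0.96, 0.52 and -0.11 untreated and -3.55, -3.02, -2.59 and -3.02 after RA. All RA arrays were lower than all untreated arrays by a wide gap. The log2 fold change was -2.89 ± 0.32 (SE, n = 4 and 4), or 7.40-fold lower, with a limma adjusted p of 0.000159.

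Tcf15 (paraxis), a bHLH protein that keeps somites epithelial and is also transcribed in ES cells (NM_009328; chromosome 2, 151974683 to 151974742, mm9), was bright before RA, at 3.72, 3.71, 3.24 and 3.64. It was at -0.75, 1.19, -0.86 and -1.39 after RA, with replicate 2 well above the other 3 RA arrays. The log2 fold change was -4.03 ± 0.49 (SE, n = 4 and 4), 16.3-fold lower, limma adjusted p 0.000259. Only 1.07% of all probes had a lower change.

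Meox1 and Meox2, homeodomain proteins that act together in the somites and the muscle formed from them, moved in opposite directions. Meox1 (NM_010791; chromosome 11, 101738847 to 101738906, mm9) was at -4.81, -5.93, -6.44 and -5.48 untreated, well above background on 1 array, and at -2.64, -1.84, -2.42 and -1.88 after RA. Its 4 RA arrays lay within 1.75-fold of each other, a narrow range among the higher genes, and the log2 fold change was 3.47 ± 0.35 (SE, n = 4 and 4; 11.1-fold; limma adjusted p 9.13e-05). The change of Meox1 was smaller after normexp (1.61) and in the authors' processed values (1.76). Meox2 (NM_008584; chromosome 12, 37905809 to 37905868, mm9) was at -3.82, -4.42, -4.26 and -3.70 untreated and at -5.92, -6.37, -5.13 and -5.67 after RA, where only replicate 3 was well above background. Meox2 was lower, with a fitted log2 fold change of -1.72 ± 0.28 (SE, n = 4 and 4; limma adjusted p 0.00138), but 3 of its 4 RA arrays were dim, and at -0.46 in the authors' processed values and -0.46 after normexp with quantile normalization it was not called.

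The difference between the Meox paralogs was tested on the per-array value of Meox1 minus Meox2. It was -0.98, -1.50, -2.18 and -1.78 in untreated replicates 1 to 4 and 3.28, 4.54, 2.70 and 3.79 in RA replicates 1 to 4. The fitted change of Meox1 exceeded that of Meox2 by 5.19 on the log2 scale. The exact two-sided permutation p was 0.0286, the smallest that 70 splits allow. Every RA array lay above all untreated arrays for Meox1 and below all of them for Meox2. That p was therefore fixed by the separation of the 2 genes and adds nothing to it. Arrays of the same replicate number deviated together only weakly, with correlations of 0.104 to 0.189 against 0.142 for the highest other pair. With these as 4 pairs the value was, by the same separation, higher after RA in 4 of 4 pairs. The exact paired p was 0.125, the smallest that 16 sign patterns allow, so the paired test could not pass the threshold. Since 3 untreated arrays of Meox1 and 3 RA arrays of Meox2 were dim, the size is uncertain, and it was 2.21 in the authors' processed values. It was the only pair tested, because in the pairs Hand1 and Hand2, Mesp1 and Mesp2, and Tcf15 and Tcf21 at least 1 gene was dim on every array of a condition.

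**Figure D2:**
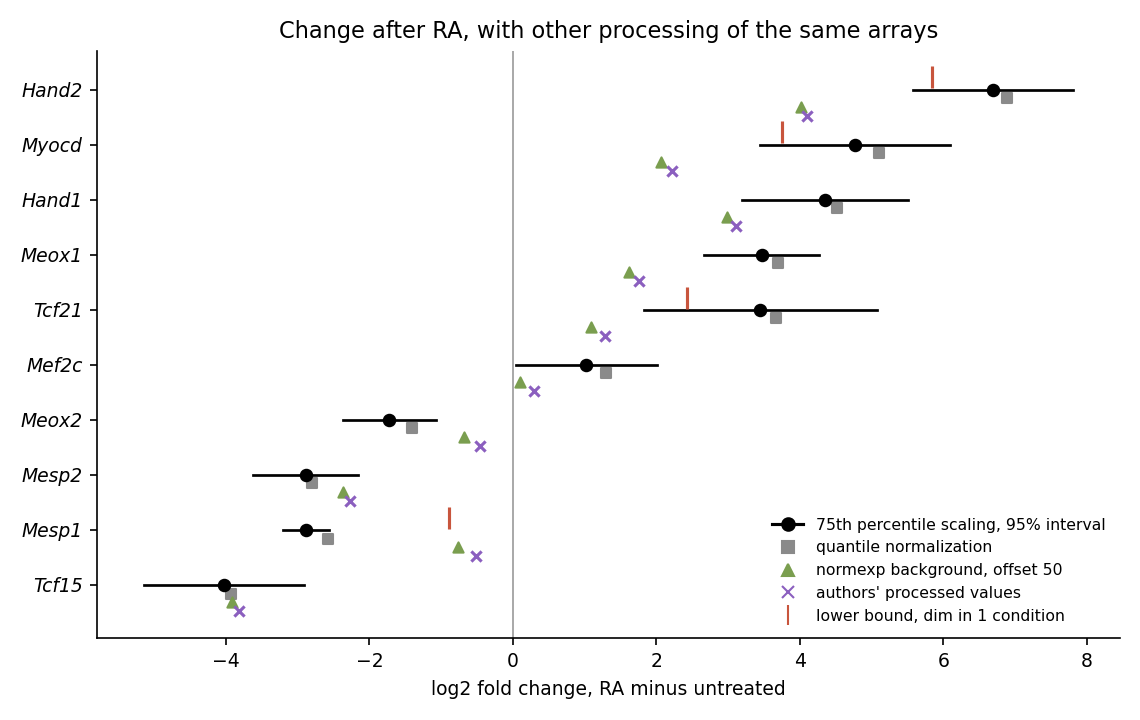
Log2 fold change of each regulator, RA minus untreated (horizontal axis), with black points and 95% intervals from limma on 75th-percentile-scaled signals, other symbols for other processing of the same arrays, and a red tick for the lower bound of genes dim throughout 1 condition. The normexp and authors' values lie closer to 0 for the dim genes, while Tcf15 stays between -4.03 and -3.81.

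The size of the change depended on how dim signals were treated, much more for some regulators than for others. In the authors' processed values the change of Meox1 was 1.76 and that of Hand1 3.11, and all 5 higher genes were still called. Of the lower genes, Mesp2 (-2.27) and Tcf15 (-3.81) were still called there.

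The RA arrays did not rank the regulators alike. RA replicate 2 was the highest RA array for Tcf15 and Meox1 and the lowest for Hand2, Tcf21 and Meox2. RA replicate 1 was the highest for Hand1 and Myocd, and RA replicate 3 was the lowest for both. Of the 6 ES cell markers listed for this purpose (Pou5f1, Nanog, Zfp42, Esrrb, Klf4, Dppa5a), all but Klf4 were also highest in RA replicate 2 among the RA arrays. Their summed signal relative to the 75th percentile was 414 to 584 in untreated arrays, 114 in RA replicate 2 and 42.4 to 67.7 in the other 3 RA arrays, and all 6 were called lower after RA, led by Esrrb (-5.75), Pou5f1 (-5.54), Nanog (-4.55) and Zfp42 (-3.88). A second bright probe of Nanog was at 0.52 and was not called (limma adjusted p 0.185), and Dppa5a alone made up 73.9 to 82.9% of the sum after RA. Summed primitive endoderm markers were lowest in RA replicate 2 (20.3, against 27.9 to 32.9 in the other RA arrays). Foxa2 made up 58.9 to 82.0% of that sum after RA, and Sox7 and Dab2 were not lowest in replicate 2. Summed cardiac muscle markers were highest there (9.67, against 3.55 to 6.25), with Myh7 at 37.9 to 70.2% of the sum after RA. Nppa, Nppb and Tnni3 were not highest in replicate 2. Without RA replicate 2 the log2 fold change of Tcf15 was -4.58, that of Hand2 7.19 and that of Tcf21 4.03, with limma adjusted p between 6.95e-06 and 0.00138. What these marker lists contribute to the values was not tested.

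**Figure D3:**
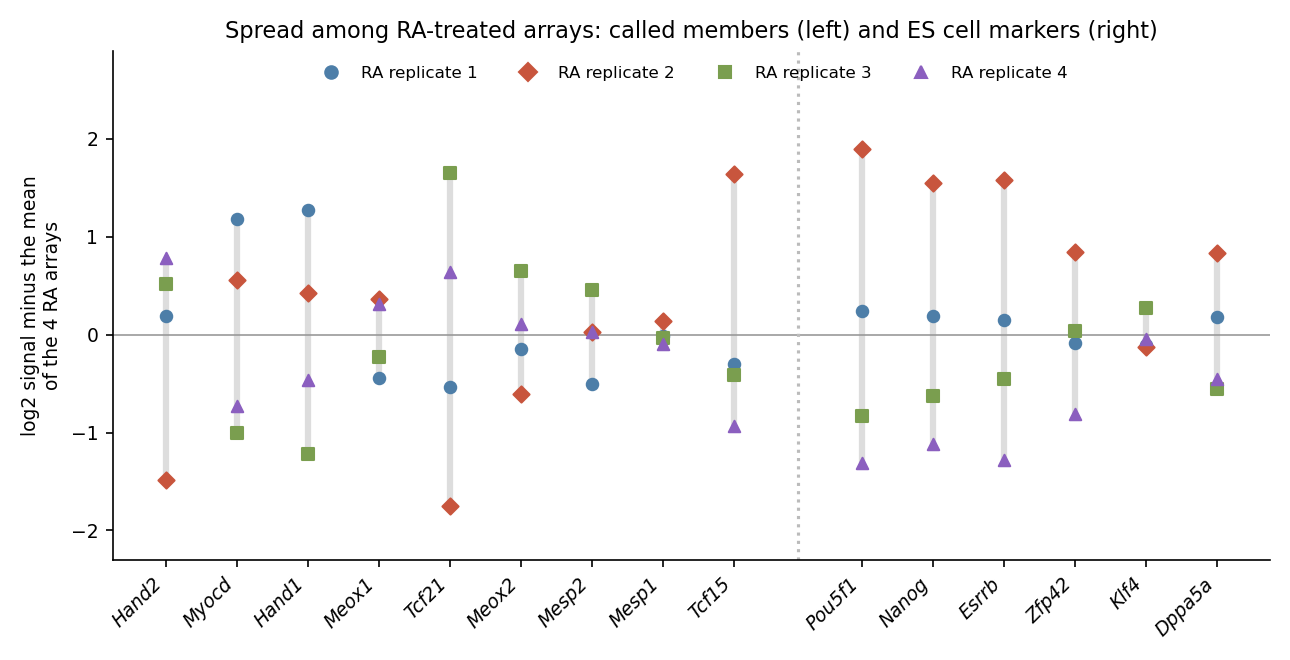
Log2 signal of each RA array minus the mean of the 4 RA arrays (vertical axis), for the 9 called regulators and, right of the dotted line, the 6 ES cell markers; each symbol is 1 RA replicate. Replicate 2 (red diamonds) is lowest for Hand2 and Tcf21, highest for Tcf15, and highest for all the ES cell markers except Klf4.

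The arrays came from 2 slides, each with 2 untreated and 2 RA arrays. The 9 called regulators changed in the same direction within each slide. The change of Hand2 was 7.52 on slide 1 and 5.86 on slide 2, of Mesp2 -3.51 and -2.27, of Tcf15 -4.55 and -3.51, and of Meox1 3.36 and 3.57. Slide as a block altered no regulator's call. Across the whole series 56.7 to 62.7% of spots were well above background per array, no spot was saturated, none of the regulators' spots was marked as an outlier, and arrays correlated at 0.981 to 0.987 within the untreated and 0.987 to 0.991 within the RA condition.

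Genes whose pattern over the 8 arrays lay nearest to a regulator were named by the root mean square difference of log2 values, after each probe's own mean was removed, over 26514 probes. Anxa1 was nearest to both Hand1 (difference 0.361) and Myocd (0.392), and Actg2, the smooth muscle gamma actin, was the next for Myocd (0.467). Nr2f2, an orphan receptor known to be induced by RA, was nearest to Hand2 (0.391), followed by the homeobox gene Hoxb4 (0.393). Gas1 was nearest to Tcf21 (0.443), Abcg5 to Meox1 (0.313), Hsd17b1 to Mesp2 (0.0777), D630039A03Rik to Tcf15 (0.184) and Jmjd7 to Meox2 (0.167). Next were Lhfp for Hand1 (0.421), Slc16a12 for Tcf21 (0.457), Ccno for Tcf15 (0.249) and 1810014F10Rik for Meox2 (0.187). For Meox1 (0.366) and Mesp2 (0.210) the next probe carried no gene symbol. No gene is given for Mesp1, whose RA values are substitutes, and the untreated values of Hand2, Tcf21 and Myocd that enter these differences were dim. The step between the conditions is part of every one of these patterns, and the values are a description only.

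Of 10 inducers of early mesoderm, which act upstream of the regulators, 1 was higher, 2 were lower and 7 were not called, against 12.9% of all probes higher and 21.6% lower. The median log2 fold change was -0.06, and this and the following list medians leave out genes dim on all 8 arrays and take genes dim throughout 1 condition at their lower bound. T (brachyury), the defining gene of the primitive streak, was at -0.78 (limma adjusted p 0.143), Eomes at 0.42 (0.625) and Tbx6 at -0.28 (0.544). The primitive streak gene Gsc fell (log2 fold change -1.95, adjusted p 0.000759) and the ligand Wnt3 rose (1.66, adjusted p 0.0413). Mixl1 was called lower but was dim on all 8 arrays, so it has no fold change here.

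Somite and paraxial mesoderm genes moved both ways, with 5 of 13 higher, 5 lower and 3 not called (median -0.13). Foxc1 was at least 38.2-fold higher, Pax9 at least 5.66-fold, and Pax3 rose by 4.19 on the log2 scale. Ripply1, a gene of the somite boundary, was lower (log2 fold change -5.13, limma adjusted p 5.29e-05), as were the Notch genes Dll1 (-1.53) and Lfng (-1.29). Ripply2 was at -0.47 and was not called.

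Among bHLH partners and relatives, 7 of 12 were higher, 2 lower and 3 not called (median 2.31). Twist2 was at least 22.6-fold higher, Scx rose by 3.13, Twist1 by 2.69, and the Id inhibitors, which tie up the common partners of bHLH proteins, rose for Id2 (2.81), Id1 (2.66) and Id3 (1.98) but fell for Id4 (-1.15). Msc (musculin), the closest relative of Tcf21, was at least 27.7-fold lower (limma adjusted p 1.28e-05), the reverse of Tcf21. Of the common partners, Tcf12 rose by 2.31, Tcf3 was at 0.45 (adjusted p 0.0764), and bright probes of Tcf4 disagreed in direction.

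Of 12 cardiac transcription factors 9 were higher, 1 was lower and 2 were not called (median 1.40). Nkx2-5 rose by 3.40, Gata6 by 3.28 and Isl1 by 1.78, while Tbx20 was at least 8.48-fold higher and Tbx5 at least 2.81-fold. Mef2c's relatives split: Mef2d rose by 0.62, Mef2b fell by 1.25 and Mef2a was at 0.27 (limma adjusted p 0.265). Srf, the partner of Myocd, rose by 0.66, though its bright probes disagreed in direction.

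Contractile genes that Mef2c and Myocd act on were higher in 9 of 12 cases and lower in none, with 3 not called (median 4.20). Acta2 rose by 9.19, Acta1 by 8.33, Tagln by 6.87 and Cnn1 by 4.90 on the log2 scale. Actc1 was also higher, with a fitted change of 8.90, but was well above background on only 1 untreated array. Not all smooth muscle genes took part: Smtn was at 0.20 (adjusted p 0.332), and Lmod1 was dim on all 8 arrays. Epicardial and stromal genes, the territory of Tcf21, were higher in 7 of 8 cases (median 3.08), with Col3a1 up by 7.05, Col1a1 by 5.20, Wt1 by 3.35 and Postn at least 4.68-fold. This list shares Tbx18 with the somite list and Pdgfra with the primitive endoderm markers, so their counts are not independent. Aldh1a2, the RA-producing enzyme of the epicardium, had a log2 difference of 3.61 and was not called (adjusted p 0.0979), its untreated arrays having an SD of 3.35.

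**Figure D4:**
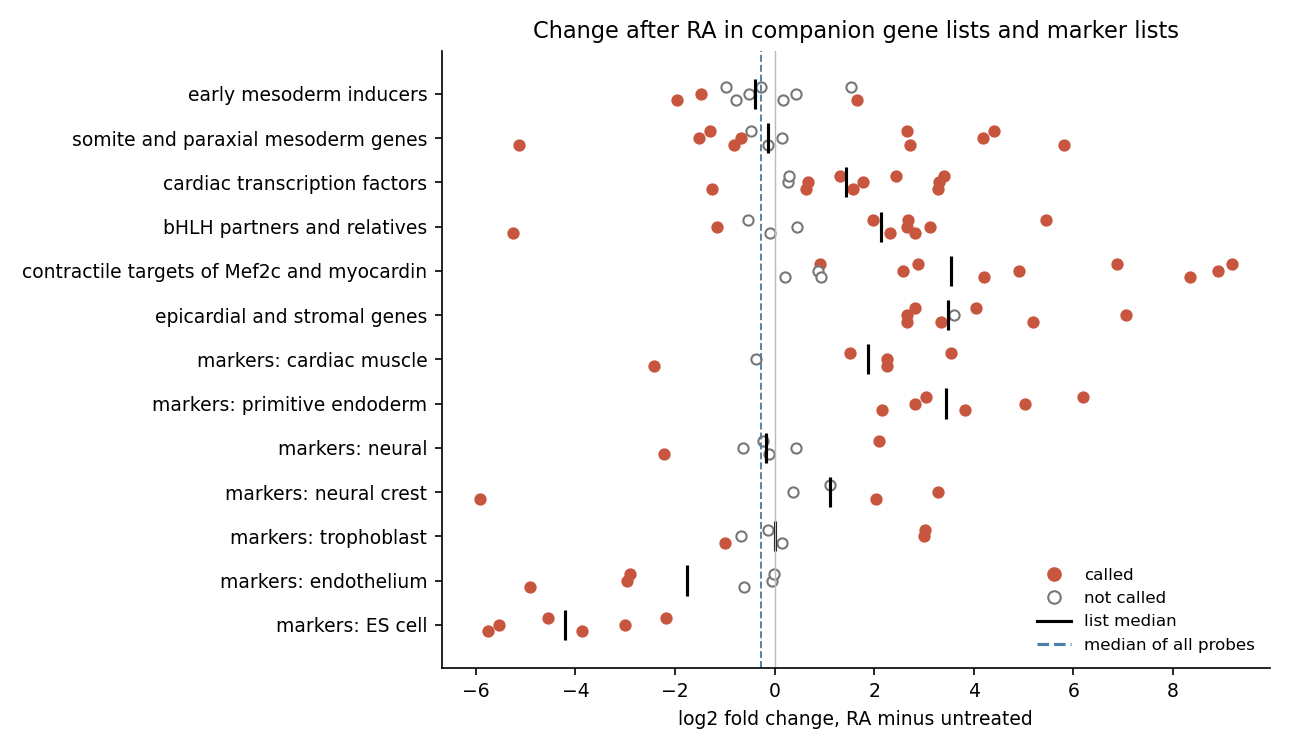
Log2 fold change, RA minus untreated (horizontal axis), of each gene in 6 lists of genes that act with the regulators and in 7 marker lists; red points were called, open points were not, black lines are medians of the fitted values and the dashed line is the median of all probes at -0.28. Contractile and epicardial lists lie to the right, ES cell and endothelial markers to the left, and the early mesoderm list on both sides of the median of all probes.

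Markers of other cell types were read in the same contrast, with sums in the same unit as for the ES cell markers. Primitive endoderm markers were higher in 6 of 6 cases, with a summed signal of 0.939 to 1.70 untreated and 20.3 to 32.9 after RA, among them Foxa2 (log2 fold change 5.03), Dab2 (3.82) and Sox17 (3.05). Afp had a fitted change of 6.18 but was well above background on only 1 untreated array. Cardiac muscle markers were higher in 4 of 6 cases and lower in 1, with sums of 2.65 to 3.97 and 3.55 to 9.67, which overlap. Tnnt2 rose by 3.54, Nppb by 2.26 and Myh7 by 2.26, Myh6 was at -0.37 (limma adjusted p 0.224) and Tnni3 fell by 2.43. Endothelial markers were lower in 3 of 6 cases (Vwf -4.91, Pecam1 -2.96, Tek -2.90; sums of 5.37 to 6.86 and 1.84 to 2.53), with the defining gene Cdh5 dim on all 8 arrays. Kdr, which made up 80.6 to 89.4% of that sum after RA, was at -0.05 (adjusted p 0.819) and its bright probes disagreed in direction.

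The remaining lists were mixed. Of 6 neural markers Nes rose by 2.10, Tubb3 fell by 2.22 and 4 were not called. Their sums, 6.18 to 9.80 untreated and 10.5 to 11.9 after RA, were 79.0 to 82.7% Nes after RA. Of 5 neural crest markers Ednrb (3.29) and Snai2 (2.03) were higher and Foxd3 (-5.92) was lower, with overlapping sums of 2.17 to 3.20 and 2.19 to 3.94. Of 6 trophoblast markers Cdx2 (3.02) and Elf5 (at least 3.12-fold) were higher and Gcm1 (-0.99) was lower, with overlapping sums of 92.1 to 255 and 54.1 to 114, of which Gcm1 alone was 92.7 to 97.9% on any array. The part of these cell types in the regulators' changes was not tested.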

How the data were processed

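Total RNA of 4 untreated and 4 RA-treated cultures was hybridised to Agilent SurePrint G3 arrays, 1 array per culture. For every array the authors deposited what the scanner software (Feature Extraction 10.7.3.1) wrote, with intensities corrected for background but not scaled across arrays. They also deposited log2 values per spot, whose normalization is not given in the sources used here. Each column of that table matched its own array best (Spearman 0.978 to 0.988). Probe positions are on mm9, from the scanner output, and whether a probe lies in a UTR was not determined.

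From the processed intensity, log2 was taken and each array's 75th percentile over 59305 spots was subtracted. The 3671 control spots and 124 to 145 outlier spots per array were left out, no filter on dim probes was applied, and spots of a probe were averaged. Conditions were compared with limma 3.58.1 in R 4.3.3 (lmFit, eBayes, Benjamini-Hochberg over 55681 probes, called under 0.05 and above 1.5-fold), tested first on simulated data. A gene takes its probe with the highest mean. The number of arrays limits the precision.

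Regulators and gene lists were chosen with earlier results of these data known. All 10 regulators are named; of each list the called genes with the largest changes are named, up to 4, with genes the list is known by, and for likeness the nearest gene or 2 of each called regulator except Mesp1. Others in the text (Dll1, Lfng, Ripply2, Twist1, Id1, Id3, Id4, Tcf12, Isl1, Mef2d, Mef2a, Mef2b, Cnn1, Smtn, Lmod1, Sox7, Nppa, Tbx18, Pdgfra) were named after their values were seen. The alternatives were quantile normalization, normexp with an offset of 50, both together, the authors' values, a filter on dim probes, replicate and slide blocks, other call rules, mean of all probes, outliers kept, and each array left out. Replicate numbers are shared between conditions. Deviations of same-numbered arrays from their condition means correlated at 0.104 to 0.189 over 27493 probes (highest other pair 0.142), and arrays of the same number were therefore treated as pairs in the blocked fit.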

Additional observations from a re-analysis of the deposited data

Results flagged for a closer look

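In the untreated arrays the Tcf15 value of replicate 3 was 3.24, apart from the other 3 at 3.64 to 3.72; the gap took up 0.830 of the whole range, just past the limit for 4 samples. It was 1 of 20 sets of 4 arrays looked at (10 regulators in 2 conditions), and chance marks about 1 in 20.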

How the results depend on the processing

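The regulators called higher numbered 5 under all 11 other settings, and 5 to 6 with each array left out, the 6 arising without RA replicate 4, where Mef2c met the call rule although it was dim on all 8 arrays. Those called lower numbered 4, but 3 under the filter on dim probes, which removed Mesp1, 2 after normexp background with quantile normalization and 2 in the authors' processed values, since Mesp1 (-0.54 and -0.52) and Meox2 (-0.46 and -0.46) then changed by less than 1.5-fold; they numbered 4 with each array left out. With the replicate block (paired fit) 5 were higher and 4 lower, and no regulator's call changed; the Meox1 minus Meox2 difference of 5.19 had an exact paired p of 0.125, the smallest possible with 4 pairs. No regulator reversed. The ranges over settings other than left-out arrays were 4.01 to 6.89 for Hand2, 2.98 to 4.52 for Hand1, 2.07 to 5.11 for Myocd, 1.09 to 3.67 for Tcf21, 1.61 to 3.70 for Meox1, -2.89 to -2.27 for Mesp2 and -4.03 to -3.81 for Tcf15, with the smaller sizes under normexp or in the authors' values. Mef2c and Mesp1 were not tested under the filter on dim probes. The Meox1 minus Meox2 difference ranged from 2.21 to 5.19. Companion genes called higher, 51 of 106, ranged from 45 to 52, and those called lower, 23, from 17 to 23 (48 to 51 and 21 to 24 with an array left out). Dim signal leaves the size of change of Hand2, Tcf21, Myocd and Mesp1 uncertain, and their lower bounds hold on the 75th percentile scale, not under normexp or in the authors' values.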
